A study of Rattus norvegicus with 6 samples.

Results

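The circadian clock genes described here are Arntl (also named Bmal1), Clock, Per1, Per2, Per3, Cry1, Cry2, Nr1d1, Nr1d2 and Dbp, 10 of the 33300 genes in the deposited table. They were chosen by gene name, each name had 1 row, and all 10 passed the filter on low values that left 12733 genes for testing. The RNA came from tendon stem/progenitor cells of the rat, precursor cells that reside in tendon, sequenced after 7 days in culture. Control cells were kept in F12 medium (3 libraries), and NAC cells in F12 with N-acetyl-L-cysteine at 500 uM, a thiol antioxidant and cysteine donor (3 libraries). The labels give tenogenic differentiation for both groups and name the cells mesenchymal stem cells. The strain, age and sex of the rats, the time of day at harvest, the time since the last medium change and any step to synchronise the cells do not appear in the labels used here.

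The circadian clock is a transcriptional feedback loop found in most mammalian cells, fibroblasts and tendon cells included. CLOCK and BMAL1 bind E-box sequences as a pair and switch on the Per, Cry, Nr1d and Dbp genes. PER and CRY proteins then return to the nucleus and repress CLOCK and BMAL1, while the REV-ERB receptors encoded by Nr1d1 and Nr1d2 repress Arntl through ROR response elements. DBP in turn activates genes with D-box sequences, Per genes among them. In cultured cells the rhythms of single cells drift apart unless a stimulus such as fresh serum, glucocorticoid or cAMP aligns them, and a culture's RNA then shows their average. A single harvest per culture gives levels at that moment and neither phase nor amplitude.

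Motifs of the kinds through which these loops run were searched for in the promoters of the members, and 4 stretches with matches are shown. They come from RefSeq promoters of the rat build GRCr8, which hold 250 bases before and 50 after a start site. Of the 10 genes 9 were matched, with 11 start sites, Arntl under its newer name Bmal1. Positions are counted from the start site, with -1 the base before it, and capitals mark the motif named for each stretch. The first stretch lies before Arntl (chr1:176766264-176766327, plus strand, positions -64 to -1), and its capitals mark 2 copies of AGTAGGTNA, the kind of element that REV-ERB and ROR receptors bind. The second lies before Per2 (chr9:99497034-99497203, minus strand, -210 to -41), with the D-box TTATGTAA and the E-box-like CACGTT in capitals. The third lies before the second start site of Nr1d1 (chr10:84229628-84229657, minus strand, -203 to -174), with the E-box CACGTG, and the last before Nr1d2 (chr15:9954835-9954864, plus strand, -199 to -170), with the receptor binding motif AGGTCA.
Arntl: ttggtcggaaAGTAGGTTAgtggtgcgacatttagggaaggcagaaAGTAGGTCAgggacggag
Per2: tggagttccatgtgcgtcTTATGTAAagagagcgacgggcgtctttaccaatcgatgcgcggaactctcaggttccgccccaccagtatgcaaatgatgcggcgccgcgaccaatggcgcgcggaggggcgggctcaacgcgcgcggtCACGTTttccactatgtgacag
Nr1d1: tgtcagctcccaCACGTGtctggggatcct
Nr1d2: gattggaaggagAGGTCAggaacgcgcata

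Both strands were searched for 6 motifs. AGTAGGTNA was found at 1 of the 11 clock gene starts and in 0.604% of all 33469 rat promoters. TTATGTAA was found at 1 start (0.893% of all promoters), CACGTG at 1 (6.42%), CACGTT at 3 (4.83%; Per2, Cry2 and the first start of Nr1d1) and AGGTCA at 2 (16.2%; Arntl and Nr1d2). The second AGTAGGTNA copy in Arntl contains its AGGTCA. The cAMP response element TGACGTCA was found at none of the 11 starts and in 1.83% of all promoters. AGTAGGTNA and CACGTT were added to the search after the sequences were seen. A match describes the letters in this window and is no evidence of binding, and windows without a match leave the rest of the gene unread.

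All 10 clock genes were expressed, between 3.16 and 80.4 FPKM (fragments per kilobase, corrected for gene length and depth, which allows levels of different genes to be set side by side), and none passed the test for a difference between NAC and Control. The Control means ran from 67.0 ± 4.14 FPKM for Dbp to 3.32 ± 0.206 FPKM for Cry1 (SD, n = 3). The nearest to a difference were the REV-ERB genes, Nr1d1 (41.5 ± 3.45 FPKM in Control, 34.9 ± 2.73 in NAC) and Nr1d2 (14.2 ± 0.767 and 12.4 ± 0.523), both with lower values in every NAC library. In the test, limma on log2(FPKM + 1) with p-values adjusted by Benjamini-Hochberg over every tested gene and a threshold of 0.05, 0 of 10 clock genes were called, beside 8.8% of all tested genes (6.08% higher and 2.72% lower). At an unadjusted p under 0.05 there were 2, Nr1d1 and Nr1d2, beside 26.3% of all tested genes, and limma voom on the reads behind the values also called 0. The labels do not say whether replicates were separate cultures, so a p-value here reflects the spread among these 6 libraries, which may be technical.

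The libraries held 12487215 to 14941949 reads, and each clock gene had between 127 reads (Cry1, Control 1) and 1859 reads (Dbp, NAC 1) in a library. Markers fixed for the labelled cell type were present, with Scx, a tendon transcription factor, at 12.5 ± 1.30 FPKM in Control and 11.6 ± 0.7002 in NAC (SD, n = 3). Summed over 8 tendon fibroblast markers the level was 8548 to 8657 FPKM in Control libraries and 12455 to 13312 in NAC, most of it from Col1a1 and Dcn. Of the 8, the matrix genes Col1a1, Col3a1 and Dcn were called higher (6.08% of all tested genes were), and 0 were called lower. Mkx, another tendon transcription factor, stood at 5.28 ± 0.394 FPKM in Control and 3.90 ± 1.07 in NAC (limma adjusted p = 0.192). Tnmd, the tenomodulin gene, chosen after its values were seen, was low, near the filter of 1 FPKM. It stood at 1.41 ± 0.369 FPKM in Control and 2.55 ± 0.537 in NAC (limma adjusted p = 0.0909). Of the markers of other cell types Ptprc of leukocytes, Cdh5 of endothelium, Krt5 and Krt14 of epithelium and Sox10 of Schwann cells were listed at 0 in all 6 libraries. The 4 leukocyte markers summed to 18.01 to 21.4 FPKM in Control and 18.5 to 20.9 in NAC, almost all from Cd14 and Cd68, and the 4 Schwann markers to 46.9 to 55.001 and 47.7 to 53.2, almost all from S100b. The 4 muscle markers summed to 6.59 to 7.02 and 7.13 to 8.30 FPKM, the 3 endothelial ones that were matched to at most 0.670 FPKM in any library, and the 4 epithelial ones to at most 0.101 FPKM. None of the tested markers of other cell types was called. In bulk RNA, fewer cells of a type and less RNA per cell cannot be told apart.

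**Figure D1:**
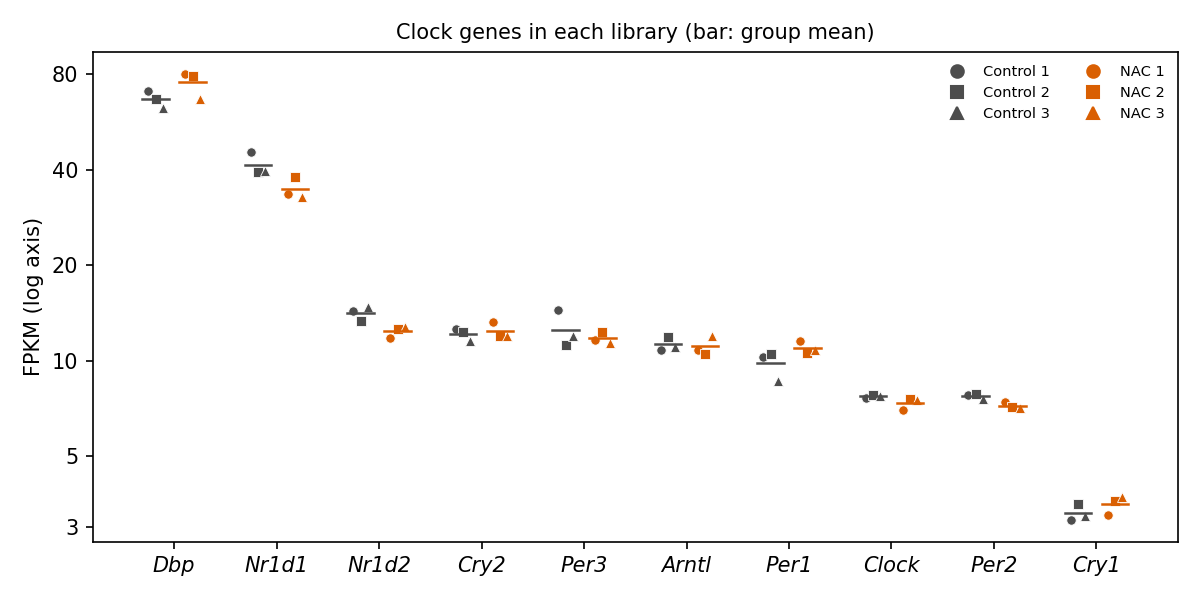
FPKM of the 10 clock genes (log axis) in each of the 6 libraries, ordered by mean level, with Control in grey, NAC in orange, the symbol giving the replicate number and the bar the group mean. Dbp and Nr1d1 stand above the other genes in every library, and Cry1 below them.

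By level, Dbp came first with a mean of 71.3 FPKM over the 6 libraries, higher than 92.04% of all tested genes, and Nr1d1 came next with 38.2 FPKM. Their ranges overlapped neither each other nor those of any other clock gene. Nr1d2, Cry2, Per3, Arntl and Per1 followed between 13.3 and 10.4 FPKM. In this middle group neighbours often changed places: Cry2 exceeded Per3 in 3 of 6 libraries, and Per3 exceeded Arntl in 4 of 6. Clock and Per2, at 7.54 and 7.49 FPKM, could not be ordered either, with Clock above Per2 in 3 of 6 libraries. Cry1 was the lowest in all 6 libraries, with a mean of 3.42 FPKM.

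The activator genes had close values in both groups. Clock, which encodes the DNA-binding partner of BMAL1 with histone acetyltransferase activity, measured 7.62, 7.82 and 7.72 FPKM in Control 1, 2 and 3 and 7.01, 7.56 and 7.54 FPKM in NAC 1, 2 and 3. The NAC values all lay under the Control values, but the highest of them was only just under the lowest Control value. The log2 fold change was -0.060 ± 0.0560 (SE), with a limma adjusted p of 0.546, and without NAC 1, the low library, it was -0.029. Arntl, which encodes BMAL1, measured 10.8, 11.9 and 11.1 FPKM in Control and 10.8, 10.5 and 12.01 FPKM in NAC. The groups overlapped, and NAC held both the lowest and the highest of the 6 values. Its log2 fold change was -0.018 ± 0.0665 (limma adjusted p = 0.894), with a 95% interval of -0.18 to 0.14.

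The 3 Per genes, which encode the repressors whose build-up times the loop, had small log2 fold changes of unlike sign. Per1, which serum, cAMP and glucocorticoid can induce directly, measured 10.3, 10.5 and 8.63 FPKM in Control and 11.6, 10.6 and 10.8 FPKM in NAC. Its NAC values were all above the Control values, Control 3 was the low library, and the gap between the groups was narrow, from 10.53 in Control 2 to 10.56 in NAC 2. The log2 fold change was 0.15 ± 0.0820 (limma adjusted p = 0.293), and without Control 3 it was 0.070.

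Per2, the Per gene with the D-box and the E-box-like motif in the printed stretch, measured 7.82, 7.86 and 7.55 FPKM in Control and 7.41, 7.16 and 7.11 FPKM in NAC. The groups did not overlap, with every NAC library lower. The means of 7.75 ± 0.1696 and 7.23 ± 0.159 FPKM (SD, n = 3) gave a log2 fold change of -0.088 ± 0.0532 (limma adjusted p = 0.341). Per3, a less essential member of the family, measured 14.4, 11.2 and 11.999 FPKM in Control and 11.6, 12.3 and 11.4 FPKM in NAC. Control 1 stood above the other 5 libraries, which overlapped. The log2 fold change of -0.076 ± 0.0921 (limma adjusted p = 0.645) became 0.022 without Control 1.

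Neither Cry gene, which encode the cryptochromes that bind and inhibit the CLOCK and BMAL1 pair, separated the groups. Cry1 measured 3.16, 3.55 and 3.24 FPKM in Control and 3.28, 3.60 and 3.72 FPKM in NAC. These values rest on 127 to 143 reads per library, the fewest of the 10 genes, and the groups overlapped (log2 fold change 0.071 ± 0.0831, limma adjusted p = 0.634). The value was 0.11 without Control 2 or NAC 1 and 0.044 and 0.041 without Control 1 and NAC 3. Cry2 measured 12.6, 12.3 and 11.5 FPKM in Control and 13.2, 12.01 and 11.96 FPKM in NAC, with overlap as well (0.027 ± 0.0608, adjusted p = 0.819). Within each library Cry1 was below Cry2, with a log2 ratio of -1.87 ± 0.109 in Control and -1.81 ± 0.177 in NAC (SD, n = 3).

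The REV-ERB receptor genes had the lowest fold changes of the 10. Nr1d1, which encodes the repressor REV-ERB alpha, measured 45.4, 39.3 and 39.6 FPKM in Control and 33.7, 38.02 and 32.98 FPKM in NAC. The groups did not overlap. Control 1 was the high library, and NAC 2 lay closest to the Control values. The log2 fold change was -0.24 ± 0.0774 (SE; limma unadjusted p = 0.0172, adjusted p = 0.104), a difference of -15.9% between the group means. Nr1d2, which encodes the related REV-ERB beta, measured 14.4, 13.3 and 14.8 FPKM in Control and 11.8, 12.6 and 12.8 FPKM in NAC. Again every NAC library was under every Control library, by -12.3% in the means. Its log2 fold change was -0.18 ± 0.0588 (limma unadjusted p = 0.0211, adjusted p = 0.116). Leaving out each library in turn gave -0.30 to -0.18 for Nr1d1 and -0.22 to -0.14 for Nr1d2, and no call.

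Nr1d1 shares 1059 bases with Thra, a thyroid hormone receptor gene on the opposite strand, in the deposited coordinates (Nr1d1, ENSRNOG00000009329, chromosome 10, 86683875 to 86690815, minus strand; their genome build is not known). The labels used here do not say whether counting used strand, so reads from the shared stretch cannot be told apart. Thra measured 25.9, 23.9 and 26.4 FPKM in Control and 29.1, 28.3 and 29.2 FPKM in NAC, all higher with NAC, opposite to Nr1d1 (log2 fold change 0.18, limma adjusted p = 0.0714). No other clock gene overlapped another gene in the table.

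Dbp, the D-box activator and the clock output gene of highest level here, measured 71.1, 67.01 and 62.8 FPKM in Control and 80.4, 79.3 and 67.2 FPKM in NAC. NAC 1 and NAC 2 were above all Control libraries, while NAC 3 fell inside the Control range. The means of 67.0 ± 4.14 and 75.6 ± 7.33 FPKM (SD, n = 3) gave a log2 fold change of 0.17 ± 0.0802, which did not pass (limma adjusted p = 0.234).

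**Figure D2:**
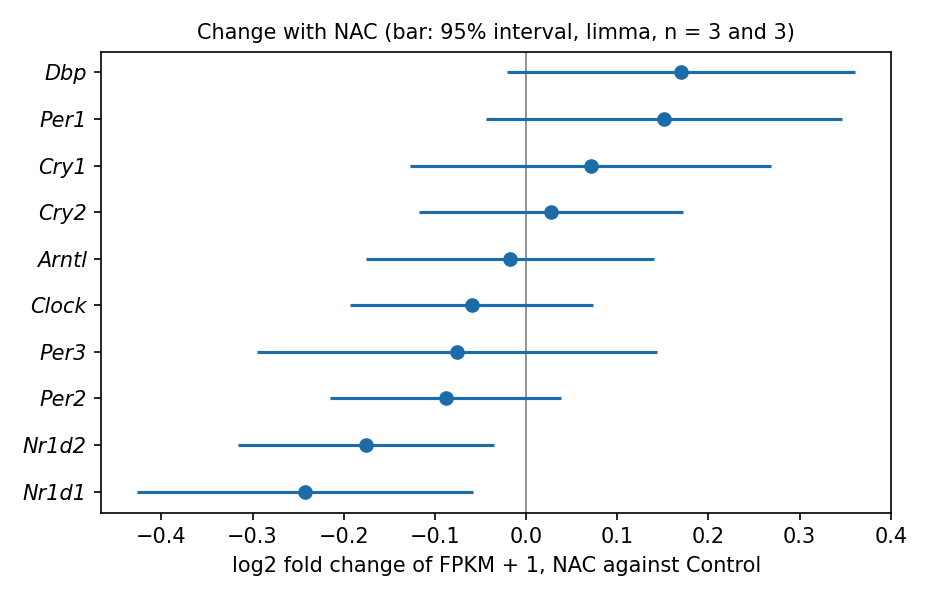
Log2 fold change of FPKM + 1, NAC against Control, for the 10 clock genes, with 95% intervals from limma (3 libraries a group, not adjusted for the number of genes). The intervals of Nr1d1 and Nr1d2 lie below 0, the other 8 include 0, and none passed after adjustment over all tested genes.

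Over the 10 genes the log2 fold changes ran from -0.24 to 0.17, with a median of -0.039 beside -0.0063 over all tested genes. Their median absolute size was 0.082, beside 0.119 over all tested genes. The groups did not overlap for 5 of the 10 (Per1 higher; Clock, Per2, Nr1d1 and Nr1d2 lower), beside 32.6% of all tested genes (16.7% higher and 15.9% lower). With the authors' scaling and for each gene alone, the lowest end of the 95% intervals was -0.43, for Nr1d1, and the highest 0.36, for Dbp. As ratios of FPKM + 1 these ends are 0.744 and 1.28. They do not bound the change under another scaling: with library totals the log2 fold change of Nr1d1 was itself -0.41.

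Replicate spread differed between the members. The reads behind a value set a counting error of 2.42% to 8.68% of the mean, and in 5 of the 20 combinations of gene and group the SD between libraries was no larger than that. These were Cry1 and Per2 in both groups and Clock in Control. In 6 combinations it was more than 2 times the counting error: Nr1d1 and Dbp in both groups, and Per1 and Per3 in Control. The coefficient of variation was highest for Per3 in Control, at 13.5%, against 3.41% from counting. No library was highest or lowest throughout. NAC 1 held the highest value for 3 genes and the lowest for 2, and Control 3 the highest for 1 gene and the lowest for 3.

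Ratios inside a library do not depend on scaling between libraries and set the CLOCK and BMAL1 targets against Arntl. The log2 ratio of Dbp to Arntl was 2.72, 2.49 and 2.50 in Control and 2.89, 2.91 and 2.48 in NAC, so NAC 3 lay below every Control library and the other NAC libraries above. That of Nr1d1 to Arntl was 2.07, 1.72 and 1.84 in Control and 1.63, 1.85 and 1.46 in NAC. Here NAC 1 and NAC 3 lay below the Control range and NAC 2 within it. For Per2 to Arntl the values were -0.47, -0.60 and -0.55 in Control and -0.55, -0.56 and -0.76 in NAC, with only NAC 3 outside the Control range. All 3 ratios were thus lowest in NAC 3, the library of highest Arntl. They share Arntl as denominator, so a high Arntl value lowers all 3 by arithmetic, and they are not independent observations. For Dbp to Arntl the gap was also small, 2.484 in NAC 3 against 2.492 in Control 2. It lies within the counting error of Arntl (4.78% in NAC).

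Of 10 other transcription factors of the loops reported here 9 were tested, and 0 were called higher and 1 lower, near the 8.8% called among all tested genes (2.72% lower), with a median log2 fold change of -0.0049 (Hlf was under the filter). Bhlhe40, which encodes DEC1, an E-box repressor that competes with CLOCK and BMAL1, measured 43.7, 42.6 and 40.9 FPKM in Control and 36.6, 34.3 and 35.1 FPKM in NAC. All NAC values were lower, by -0.26 ± 0.0447 (log2, SE, limma adjusted p = 0.0199). The call ended without Control 1, NAC 1, NAC 2 or NAC 3 (-0.28 to -0.23). Its paralog Bhlhe41, encoding DEC2 and chosen after its values were seen, stood the other way, at 9.73, 11.6 and 9.07 FPKM in Control and 13.4, 13.9 and 12.2 FPKM in NAC. It missed the threshold (0.35 ± 0.0942, adjusted p = 0.0687) and passed only when Control 2 was left out (0.44, adjusted p = 0.0229).

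Of 12 reported genes that set the stability of PER and CRY proteins 11 were tested, and limma called 0 in either direction (median -0.0068), where it called 8.8% of all tested genes. At an unadjusted p under 0.05 there was 1 (26.3% of all), and voom called 0 (12.3% of all). The most abundant, the casein kinase genes Csnk1a1 and Csnk1d, whose enzymes phosphorylate PER proteins, stood at 123 ± 0.743 and 52.3 ± 0.243 FPKM in Control (SD, n = 3) and at 124 ± 2.07 and 50.8 ± 1.27 FPKM in NAC. The gene at the unadjusted threshold was Prkaa1, a catalytic subunit of the energy sensor AMPK, chosen after its value was seen (log2 fold change -0.12, adjusted p = 0.181). With library totals 7 of these genes were called lower, in a setting where most called genes were. None of 12 nuclear cofactor genes was called in either direction by limma (median -0.052), beside 4 at an unadjusted p under 0.05 (26.3% of all tested genes were) and 3 with voom (12.3% of all were; Crebbp and Kdm5a lower and Timeless higher, chosen after their values were seen). The most abundant cofactors, Nono and Sfpq, RNA-binding partners of PER complexes, stood at 49.4 ± 1.98 and 32.5 ± 3.002 FPKM in Control (SD, n = 3) and at 46.8 ± 1.87 and 33.5 ± 1.39 FPKM in NAC.

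Among 9 genes known as clock outputs in other tissues 8 were tested, with 0 called higher and 1 lower (median 0.10), also near the 8.8% of all tested genes. This was Cdkn1a, the cell cycle inhibitor p21, at 120.4, 129.9 and 116 FPKM in Control and 69.4, 68.2 and 82.5 FPKM in NAC (log2 fold change -0.73, limma adjusted p = 0.00391). It is also a target of p53 and other inputs, whose part was not tested. The G2 kinase gene Wee1 and the NAD synthesis gene Nampt, classic outputs chosen here after their values were seen, stood at 6.21 ± 0.311 and 31.9 ± 1.17 FPKM in Control (SD, n = 3) and at 6.91 ± 0.678 and 35.9 ± 2.15 FPKM in NAC, neither called (adjusted p = 0.354 and 0.117, limma).

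**Figure D3:**
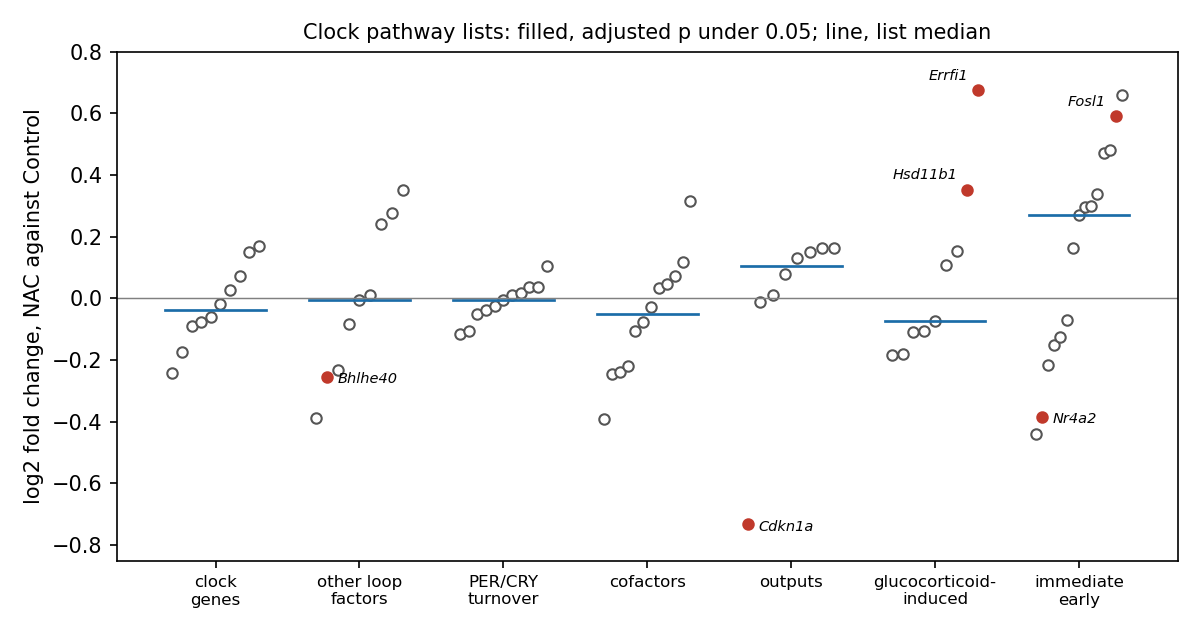
Log2 fold change, NAC against Control, of every tested gene in 7 lists (10 clock genes and 6 lists of related genes), 1 point per gene, filled where the limma adjusted p was under 0.05 and with a line at the list median. No clock gene is filled, and Cdkn1a, at -0.73, is the lowest called gene shown.

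Glucocorticoid and immediate early signals, which act on Per1 and Per2 in culture, were read beside them. Of 10 genes listed as glucocorticoid-induced 9 were tested. Of these 2 were called higher and 0 lower (median -0.073), beside 6.08% and 2.72% of all tested genes. That split depends on the scaling: with quantile normalization 2 were called higher and 2 lower (Cebpd -0.34 and Mt2A -0.39), and with library totals 2 higher and 4 lower (those and Tsc22d3 and Nr3c1). Cebpd, Mt2A and Nr3c1 were chosen after their values were seen. Nr3c1 encodes the glucocorticoid receptor itself, so its change is not read as that of an induced gene. Its log2 fold change, -0.073, is the list median. Hsd11b1, whose enzyme regenerates active glucocorticoid, was 56.7 ± 1.12 FPKM in Control and rose to 72.7 ± 1.06 in NAC (SD, n = 3; adjusted p = 0.00293 by limma). Errfi1, a feedback inhibitor of the EGF receptor, rose from 21.0007 ± 3.98 to 33.9 ± 3.44 FPKM (adjusted p = 0.0290), a call that held among the leave-outs only without Control 2 (0.58 to 0.74 in the other 5) and was also lost without a filter, without the variance trend and with the replicate number as a block (adjusted p = 0.0617, 0.0516 and 0.0796). Fkbp5 and Tsc22d3, the most commonly used glucocorticoid markers and named here for that reason after their values were seen, stood at 6.79 ± 0.846 and 14.5 ± 0.803 FPKM in Control and at 7.63 ± 0.0972 and 12.6 ± 0.870 FPKM in NAC, neither called (adjusted p = 0.304 and 0.1399, limma).

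The immediate early genes Fos, Egr1 and Nr4a1 spread more widely between libraries of a group than the clock genes did. Fos measured 2.88, 10.4 and 2.32 FPKM in Control and 3.94, 4.91 and 18.9 FPKM in NAC. Egr1 measured 39.9, 128 and 35.5 FPKM in Control and 48.1, 45.7 and 154 FPKM in NAC, and Nr4a1 measured 79.6, 181 and 82.9 FPKM in Control and 57.3, 68.97 and 119.7 FPKM in NAC. Control 2 and NAC 3 were thus the highest library of their group for all 3 genes. Per1 was also highest in Control 2 within its group, close to Control 1, but in NAC its highest library was NAC 1. Per2 was highest of all 6 libraries in Control 2 and lowest of all in NAC 3. By rank, neither Per gene followed the immediate early genes in both groups. These Per2 ranks rest on gaps within its counting error (4.03% in Control, 4.25% in NAC): 7.86 in Control 2 against 7.82 in Control 1, and 7.11 in NAC 3 against 7.16 in NAC 2. A shared input to the Per and immediate early genes was not tested. None of the 3 immediate early genes was called (limma adjusted p = 0.566, 0.807 and 0.510).

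Of 17 immediate early genes 15 were tested, with 1 called higher and 1 lower (median 0.27), near the 6.08% and 2.72% of all tested genes. Fosl1, an AP-1 subunit, was 22.03 ± 4.09 FPKM in Control and rose to 33.3 ± 0.126 in NAC (SD, n = 3; adjusted p = 0.0317 by limma). It was not called without Control 1, NAC 1, NAC 2 or NAC 3 (0.59 to 0.60), without a filter, without the variance trend or with the replicate block (adjusted p = 0.0565). Nr4a2, a nuclear receptor, fell from 28.3 ± 1.99 to 21.5 ± 1.33 FPKM (adjusted p = 0.0204). Of the 6 fits with a library left out it was called only in that without Control 2 (-0.41 to -0.33 in the other 5).

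**Figure D4:**
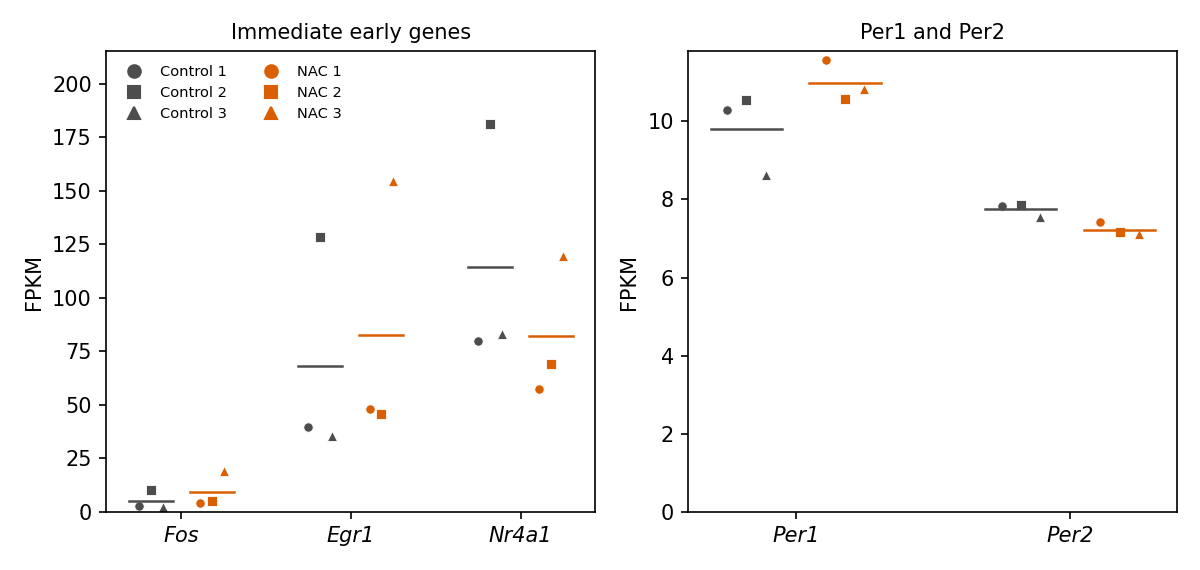
FPKM of the immediate early genes Fos, Egr1 and Nr4a1 (left) and of Per1 and Per2 (right) in each library, with linear axes from 0, Control in grey, NAC in orange, the symbol giving the replicate number and the bar the group mean. Control 2 and NAC 3 stand out for the immediate early genes, while Per1 stays between 8.63 and 11.6 FPKM and Per2 between 7.11 and 7.86 FPKM.

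The scaling between libraries bears on these directions. With the authors' scaling the log2 fold changes of all tested genes had a median of -0.0063, which became -0.16 with library totals, where 465 genes were called higher and 3725 lower (11.1% higher, against 69.1% as deposited, and 58.2% with quantile normalization). Under library totals Clock, Per2, Nr1d1 and Nr1d2 were called lower (-0.21, -0.24, -0.41 and -0.34; limma adjusted p = 0.0299, 0.0165, 0.0113 and 0.0118). Relative to that shifted median their changes were -0.054, -0.082, -0.25 and -0.18, close to the values as deposited. Library totals multiply all genes of a library by the same factor, so this closeness follows from the arithmetic. It cannot say which scaling is right. In the same setting the values of Per1, Dbp, Cry1 and Cry2 turned to -0.0077, -0.0019, -0.064 and -0.13.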

How the data were processed

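The authors deposited 1 table of FPKM values for 6 libraries, made per the labels' protocols from total RNA with a SMARTer mRNA-Seq kit. Per the submitters' processing notes the builds were GRCm38 and mm10, both of mouse, although the gene identifiers are of rat. Aligner, counter, strand setting and annotation were not given in the sources used here. Columns headed N were taken as Control by elimination. Dividing FPKM times gene length by the value of 1 read in that library gave whole reads (100% of values within 0.01); counting errors cover counting only. The authors' scaling totals were on average 1.03 times these reads in Control and 0.916 times in NAC.

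Genes with a mean of at least 1 FPKM were tested on log2(FPKM + 1), a scale that understates changes of low genes, with limma 3.58.1 in R 4.3.3 (trend, group only, two-sided). Tables and figures used Python 3.11.15. The fit was also run on simulated reads, with the same spread setting for every gene and the authors' totals as depth. That run reproduces neither the uneven spread of these libraries nor the choice of scaling, and no result here rests on it. Named were all 10 clock genes, called members of 6 related lists, the 2 most abundant where none was called, and Fos, Egr1 and Nr4a1. Other tested genes named from the 6 lists are marked as chosen later. The rule did not cover single names from the marker lists, of which only Tnmd is marked. Thra was named for its overlap with Nr1d1. The members and lists were chosen with earlier results of these data known. The reads of replicate libraries differed beyond sampling noise (3.59 to 9.20 chi-square units for each degree of freedom), so each counted as 1 replicate. One listed pathway gene (Ier2) and 1 marker (Pecam1) were not matched, and 2 listed genes were matched through older names. Another 2 listed genes are not reported here, and the counts of their lists leave them out. The 15 alternatives are given with their effect at the end.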

Additional observations from a re-analysis of the deposited data

How the results depend on the processing

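The count of clock genes called, 0 higher and 0 lower, was the same under 14 of 15 alternatives; with library totals 4 were lower. Reversals among clock genes, none called, were those named with library totals (Per1 -0.0077, Dbp -0.0019, Cry1 -0.064, Cry2 -0.13), Per3 without Control 1 (0.022), Arntl without Control 2 (0.019) or NAC 2 (0.017), and Cry2 without Control 3 (-0.0066) or NAC 1 (-0.017). Over the 6 leave-outs Arntl ran from -0.069 to 0.019, Per3 from -0.15 to 0.022 and Cry2 from -0.017 to 0.053. Cry1 could not be tested at a mean FPKM of at least 5. The counts for all genes, 774 higher and 346 lower, became 465 and 3725 with library totals, 466 and 110 with the replicate block, and for lower genes 207 without a filter, 206 without trend and 529 with voom. With library totals 3 other loop, 7 turnover, 6 cofactor and 6 of the genes listed as glucocorticoid-induced (2 higher, 4 lower with Nr3c1) were called. Without a filter, without trend or with the replicate block, 1 glucocorticoid-induced and 1 immediate early gene were called. With quantile normalization 4 glucocorticoid-induced genes were called (2 higher, 2 lower). Cofactor calls were 1 with a pseudocount of 0.1, 1 at a mean FPKM of at least 5 (Kdm5a in both) and 3 with voom. Leaving out each library in turn gave 263 to 859 genes higher, 50 to 345 lower, 0 to 2 other loop, 0 to 1 cofactor, 1 to 2 glucocorticoid-induced and 0 to 2 immediate early genes. The NAC minus Control difference of the log2 Cry1 to Cry2 ratio, 0.062, ran from -0.0020 to 0.16. The cause of these changes was not tested. The labels do not say that equal numbers share an animal or a day, so the numbers were not treated as pairs. Deviations from the group mean correlated at 0.0627, 0.0589 and -0.0502 between same-numbered libraries, and at -0.113 to 0.0650 between libraries of unequal number. These values do not settle whether equal numbers were pairs, since the ranges overlap. The replicate block called 0 clock genes. Depth limits Cry1 most, at 127 to 143 reads.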
